A study of Mus musculus with 24 samples.

Results

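The 10 genes described here make, salvage, consume or dispose of nicotinamide adenine dinucleotide (NAD) and its nicotinamide core: Nmrk2, Nmrk1, Nampt, Nmnat1, Nmnat3, Naprt, Nnmt, Inmt, Cd38 and Sirt1. They were taken by symbol from the 46078 genes of the deposited count tables, and all 10 passed the filter on low counts that left 15128 genes. The libraries were RNA-seq of hearts of C57BL/6 mice, 3 in each of 8 groups: sham surgery, 45 min of ischemia, and the same ischemia followed by 0.5, 1, 1.5, 3, 6 or 12 h of reperfusion. The mice carried no stated transgene or drug, and the sources used here do not give age, sex or the part of the heart sampled. Whether the 3 libraries of a group are 3 mice is not stated in the labels. Errors and p-values therefore cover the spread among libraries, some of which may be technical. The genes were chosen by pathway, at a time when their measured counts over these same 8 groups were known. Their values are therefore given as a description. Where one of them is said to lie past the threshold on the adjusted p, that too is a description and no evidence for a change.

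NAD carries electrons between the fuels and the respiratory chain, and it is also split as a substrate by sirtuins, by poly-ADP-ribose polymerases and by the CD38 family. The nicotinamide that these enzymes release is recycled through nicotinamide mononucleotide by Nampt, the step that usually limits the pathway. The nicotinamide riboside kinases Nmrk1 and Nmrk2 reach the same mononucleotide from another vitamin B3 form, Naprt starts from nicotinic acid, and the adenylyltransferase enzymes Nmnat1 and Nmnat3 finish the dinucleotide. Methylation of nicotinamide by Nnmt takes it out of the cycle at the cost of a methyl group, and Inmt methylates indoles and other small amines. The heart holds much NAD and relies mainly on salvage from nicotinamide to keep it.

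The libraries held 13407465 to 17181458 uniquely mapped counts, of which 39.2% to 54.5% were marked as duplicates. Levels below are CPM, the counts of a gene scaled to the size of its library and by TMM factors. A floor of 3 counts stood for 0.175 to 0.224 CPM, and floors cover counting error only. Here a log2 difference is the fitted difference of a group from sham. Its standard error (SE) is the size of that difference divided by the square root of edgeR's F statistic, as for log2 fold changes below. It rests on a spread shared over all 24 libraries, so it does not follow the spread of the 2 groups compared. For Nmrk2 the SE was 0.40 at 0.5 h and at 6 h, where the SDs of log2 CPM were 0.29 and 1.15. The heart label fitted its markers: 11 ventricular cardiomyocyte genes summed to 49402 to 91395 CPM per library, and 7 lung epithelium genes to at most 2.80 CPM. The summed CPM of 10 neutrophil markers was 4.73 to 10.3 in sham, 38.1 to 88.6 at 3 h, 140 to 274 at 6 h and 207 to 246 at 12 h. All 9 tested neutrophil markers rose at 6 h and at 12 h. The 10 fibroblast markers summed to 2316 to 2390 CPM in sham, 1309 to 1881 at 6 h and 1440 to 2116 at 12 h, with 3 genes rising and 6 falling at 6 h. The 11 ventricular genes summed to 68962 to 72190 CPM in sham, 60815 to 68338 at 6 h and 49402 to 58470 at 12 h. In whole tissue, fewer cells of a type and less RNA per cell cannot be told apart, and the part of these shifts in the values below was not tested.

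The genes past the threshold were most numerous at 6 h, and the widest differences were those of Nmrk2 and Inmt at 6 and 12 h. These 2 genes were also the ones with log2 differences larger than 1 in size before 3 h, Nmrk2 at 1 and 1.5 h and Inmt in each group, all of them lower than sham. In hearts taken at the end of ischemia, 0 of the 10 genes lay past an adjusted p of 0.05, where 0.0925% of all genes did. Leaving out any 1 library also gave 0. Ischemia replicate 3 held 19.0% mitochondrial counts and 41.2% duplicates, against 30.2% and 52.7% in replicate 1 and 29.7% and 54.5% in replicate 2. Its part in this result was not tested, and 0 genes past the threshold does not show that they were unchanged. At 0.5, 1 and 1.5 h, 1 gene in each comparison lay past the threshold on the lower side. Of all genes, 11.9%, 10.9% and 7.54% were called there in either direction. Calls on the lower side made up 4.48%, 3.41% and 2.99% of all genes and calls on the higher side 7.43%, 7.46% and 4.55%. At 3 h, 2 were past it as higher and 3 as lower, against 35.3% of all genes called, 18.4% as higher and 16.9% as lower. At 6 h, 3 were past it as higher and 5 as lower, against 47.4% of all genes, 24.6% as higher and 22.9% as lower. At 12 h, 1 was past it as higher and 2 as lower, against 31.8% of all genes, 16.9% as higher and 14.9% as lower. Nothing is read from these counts, since the genes were chosen with the comparisons known. All 7 comparisons share the sham libraries. The median log2 difference over the 10 genes was -0.22 after ischemia, -0.32 at 0.5 h, -0.08 at 1 h, -0.17 at 1.5 h, -0.31 at 3 h, -0.23 at 6 h and -0.02 at 12 h. Over all genes tested it lay between -0.01 and 0.01 in each comparison.

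**Figure D1:**
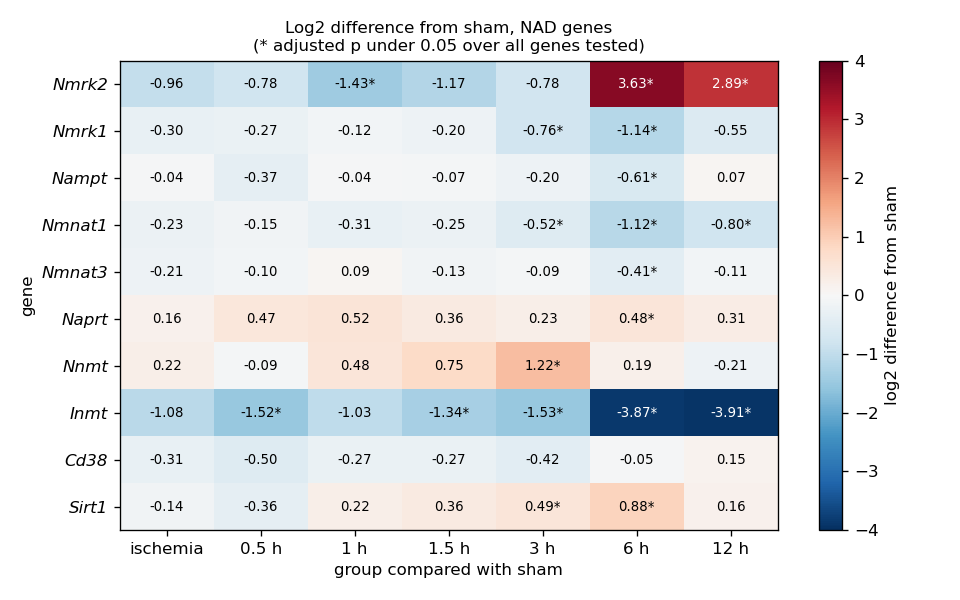
Log2 difference from sham for the 10 genes (rows) in the 7 other groups (columns), with colour for the size. An asterisk stands where the adjusted p over all genes tested was under 0.05, as a description only. The widest values are those of Nmrk2, at 3.63 and 2.89 in the 6 h and 12 h columns, and of Inmt, at -3.87 and -3.91.

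Nmrk2, the riboside kinase known mainly from heart and skeletal muscle, had the widest range of the 10 genes: its group means spanned 4.82 on the log2 CPM scale, against 3.73 for Inmt and 1.39 or less for the other 8. The gene lies on chromosome 10, 81198170 to 81202051, minus strand (GRCm38). Its promoter window is shown because this gene moved furthest. The window runs from 250 bases before to 50 after the RefSeq start (GRCm38.p6, chr10:81201988-81202287, minus strand), is written 5′ to 3′, and has TATAAA in capitals.
Nmrk2: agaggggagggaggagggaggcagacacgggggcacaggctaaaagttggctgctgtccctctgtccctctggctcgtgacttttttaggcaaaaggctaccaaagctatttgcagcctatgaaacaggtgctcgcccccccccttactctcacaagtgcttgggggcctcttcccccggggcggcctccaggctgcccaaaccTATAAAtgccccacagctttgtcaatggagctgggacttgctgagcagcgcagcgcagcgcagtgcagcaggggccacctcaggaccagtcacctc
The TATAAA match begins 46 bases before the start, on a window with 60.7% G or C and 8 CG pairs, beside medians of 52.7% and 7 over all promoters. Of all 32851 RefSeq promoter windows of this length, 13.6% hold TATAAA on either strand. That motif was looked for after the sequences had been read. The 2 motifs set earlier, CACGTG (the E-box, in 7.15% of all windows) and TGACTCA or TGAGTCA (the AP-1 site, in 5.20%), are not among the letters of this window on either strand.

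Sham hearts held Nmrk2 at 12.1, 18.8 and 15.1 CPM. After ischemia alone the libraries stood at 6.70, 4.94 and 11.6 CPM. All libraries from the end of ischemia to 3 h lay below the lowest sham library. The lowest group was 1 h with 5.07, 7.59 and 4.29 CPM, a log2 difference of -1.43 ± 0.42 (SE of the fit, 3 libraries against 3). At 3 h the values were 6.56, 9.98 and 10.4 CPM. The next time point was unlike all earlier ones: at 6 h the 3 libraries held 65.8, 193 and 310 CPM. The 6 h mean was 21.1 times the 3 h mean, and the log2 difference from sham was 3.63 ± 0.40, or 12.4-fold. At 12 h the values were 73.9, 110 and 157 CPM, 2.89 ± 0.39 on the log2 scale or 7.42-fold, and they overlapped those at 6 h. All 6 libraries of the 6 h and 12 h groups lay above every sham library, and the 6 h libraries differed among themselves by more than those of any earlier group. With the 5 groups between sham and 6 h ordered by mean, 1 h, 1.5 h, ischemia, 0.5 h and 3 h, each overlapped its neighbour.

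The summed neutrophil markers given above were higher than sham at 6 h and 12 h, as Nmrk2 was. They were also higher at 3 h, when Nmrk2 was below sham. At 6 h and at 12 h, replicate 3 held the most Nmrk2 of its group and the lowest marker sum, 140 and 207 CPM. The gene is also active in skeletal muscle, and 9 markers of that tissue, among them Acta1 and Ckm, which the heart expresses too, summed to 1256 to 1412 CPM in sham, 1339 to 1577 at 6 h and 1046 to 1488 at 12 h. The markers with 0 reads in a whole group were Myh2 and Myh4 in sham, Actn3, Myh1 and Myh4 at 6 h, and Myh1 and Myh2 at 12 h. The part of either cell type in the Nmrk2 levels was not tested. The antisense gene Atcayos overlaps 270 exonic bases of Nmrk2, and no source used here gives the strand setting of the counting, so reads in that overlap could belong to either gene. Atcayos stood at 48.7 ± 2.08 CPM (SD, n = 3) in sham, 21.5 ± 1.44 at 3 h, 9.84 ± 4.62 at 6 h and 19.4 ± 6.71 at 12 h. Its mean was below that of sham in all 7 other groups, on the same side as Nmrk2 up to 3 h and on the other side at 6 and 12 h. After ischemia Atcayos stood at 48.3 ± 7.20 CPM and overlapped sham. Its neighbour Atcay stood at 13.1 ± 4.44 CPM in sham and 1.68 ± 2.25 at 6 h.

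**Figure D2:**
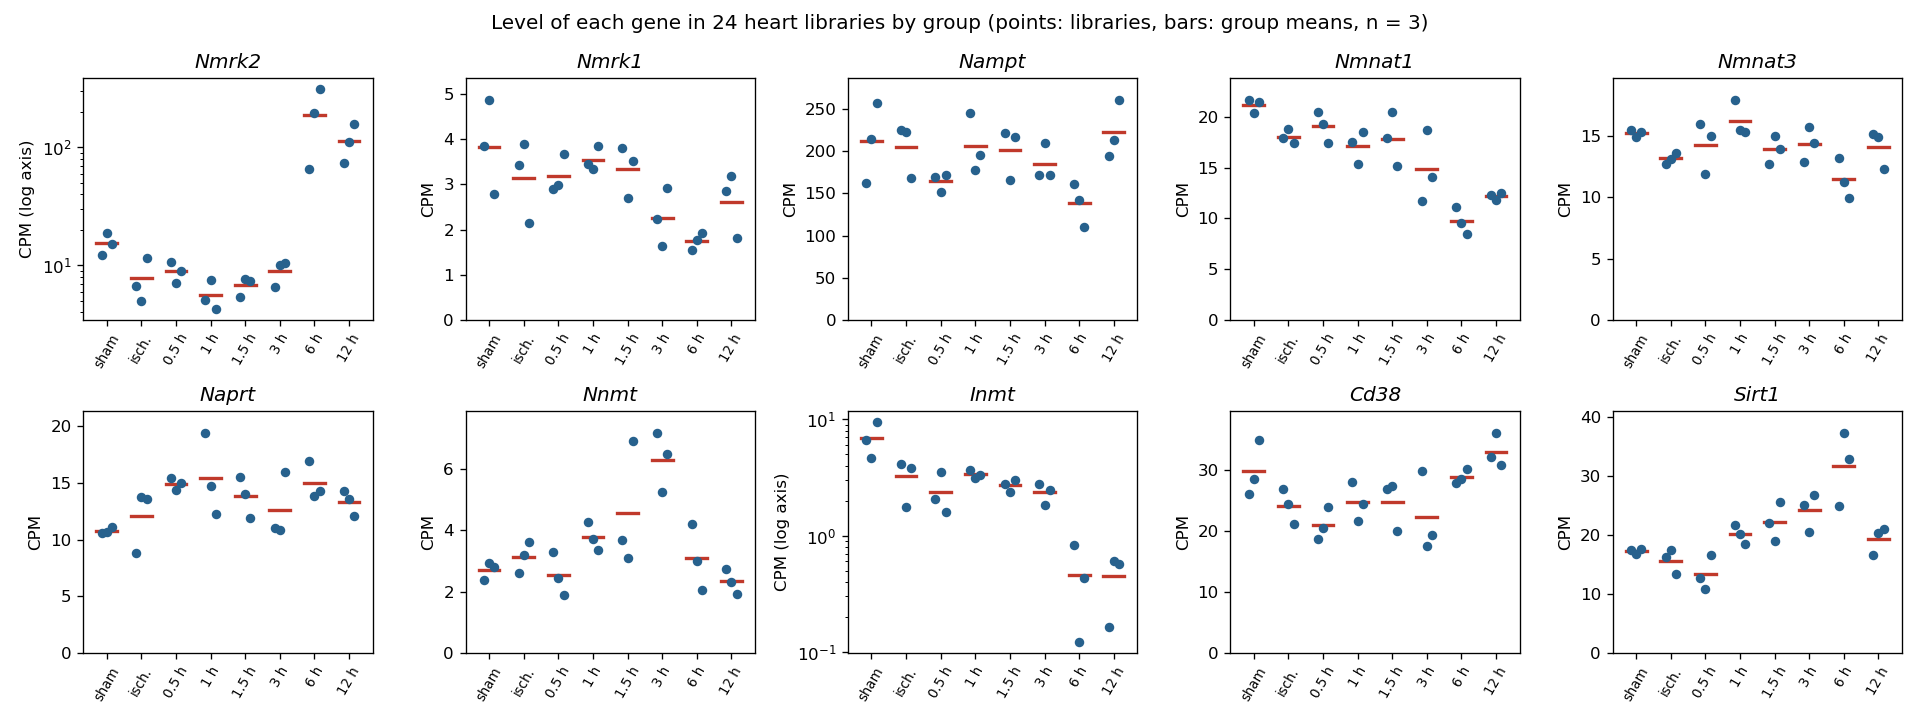
CPM of each of the 10 genes (panels) in all 24 libraries, by group on the horizontal axis. Points are libraries and red bars are group means, with log axes for Nmrk2 and Inmt and linear axes from 0 for the others. The 6 h and 12 h points of Nmrk2 sit at 65.8 CPM or more and those of Inmt at 0.828 CPM or less.

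Nmrk1, the riboside kinase found in most tissues, was the scarcer of the pair. Its mean was below that of sham in all 7 other groups, as that of Nmrk2 was up to 3 h, and at 6 and 12 h the pair lay on opposite sides of sham. Up to 3 h all Nmrk2 libraries lay below sham. Those of Nmrk1 overlapped sham from ischemia to 1.5 h, with log2 differences from -0.30 ± 0.27 to -0.12 ± 0.27. Sham libraries held 3.85, 4.86 and 2.80 CPM (chromosome 19, 18631950 to 18652428, plus strand). At 6 h they held 1.54, 1.77 and 1.93 CPM, all below sham, with a log2 difference of -1.14 ± 0.28. The difference was -0.76 ± 0.28 at 3 h and -0.55 ± 0.27 at 12 h, and in both groups at least 1 library overlapped sham. Counted per kilobase of gene, Nmrk2 exceeded Nmrk1 by a median of 7.02 times in sham (5.73 to 9.82 over libraries), 199 times at 6 h (77.8 to 292) and 62.8 times at 12 h (47.0 to 157). The isoenzymes therefore differed in level in every sham library, and by more in every 6 h and 12 h library.

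Nampt, the salvage enzyme, was the most abundant of the 10 per kilobase in sham hearts, at 46.6 ± 10.5 CPM per kilobase (SD, n = 3). Its sham libraries held 162, 215 and 258 CPM (chromosome 12, 32819545 to 32853349, plus strand), a wide spread for a gene of this abundance. From ischemia to 3 h each group overlapped sham, with log2 differences between -0.37 ± 0.17 at 0.5 h and -0.04 ± 0.17 at 1 h. At 6 h the values were 162, 142 and 111 CPM, a log2 difference of -0.61 ± 0.17. The highest 6 h library was just below the lowest sham library. At 12 h they were 194, 214 and 261 CPM, within the sham range but for the highest, and 1.61 times the 6 h mean. The 12 h libraries all lay above the 6 h libraries. The 6 h library with the least Nmrk2, replicate 1, was the one with the most Nampt, but at 12 h replicate 3 held the most of both. Over the 24 libraries the log2 CPM of the 2 genes correlated at r = -0.311.

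Per kilobase, Nmrk2 was below Nampt in every library up to 3 h, with Nampt a median of 5.42 times higher in sham and 8.49 times higher at 3 h. At 6 h the order of the means had changed: Nmrk2 stood at 103 ± 66.3 and Nampt at 30.4 ± 5.67 CPM per kilobase. Nmrk2 was ahead in all 3 libraries of that group, by 1.01 to 6.91 times. At 12 h Nmrk2 stood at 61.8 ± 22.8 and Nampt at 49.0 ± 7.51 CPM per kilobase, and the ratio of Nmrk2 to Nampt ran from 0.941 to 1.49 over libraries. These are transcript levels only, and amounts of enzyme or NAD were not measured.

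**Figure D3:**
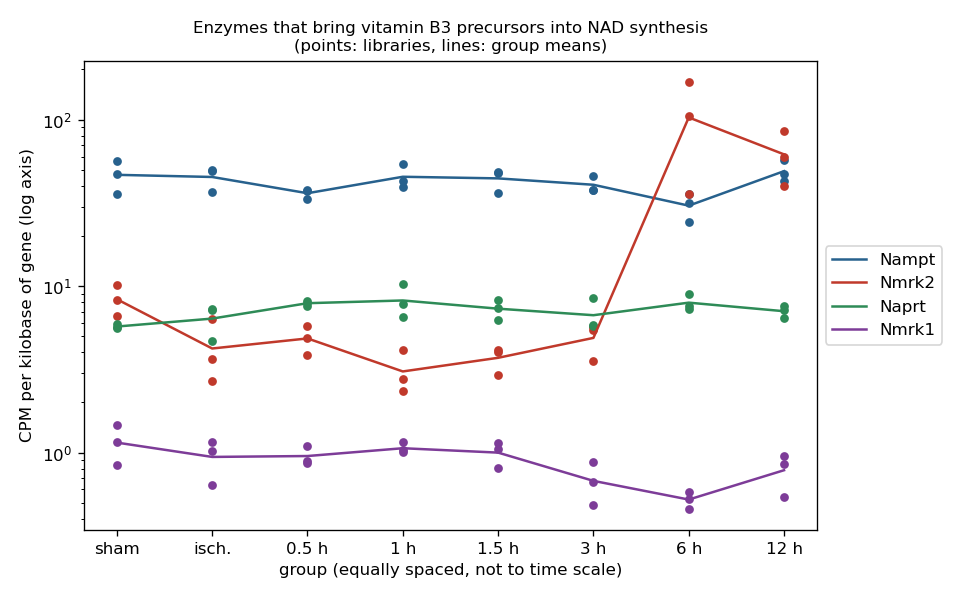
CPM per kilobase of gene (log axis) of the enzymes that bring the vitamin B3 forms into NAD synthesis, by group at equal spacing. Points are libraries and lines join group means. The Nmrk2 line runs below the Nampt line up to 3 h (4.88 against 40.6) and above it at 6 h (103 against 30.4), and Nmrk1 is lowest in all 8 groups.

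Naprt, which starts NAD synthesis from nicotinic acid, varied least of the 10 genes, with a range of 0.49 over group means on the log2 CPM scale. Sham libraries were close together at 10.6, 10.7 and 11.1 CPM (chromosome 15, 75890956 to 75894481, minus strand). At 0.5 h they were 15.4, 14.4 and 14.97 CPM, and at 6 h 16.9, 13.8 and 14.3 CPM with a log2 difference of 0.48 ± 0.18. All libraries at 0.5, 1, 1.5, 6 and 12 h lay above sham, and those of ischemia and 3 h overlapped it. Naprt shares 277 exonic bases with Eef1d, a translation elongation factor gene on the same strand. Eef1d stood at 72.0 ± 1.72 CPM in sham, 102 ± 1.79 at 0.5 h, 107 ± 6.90 at 3 h and 110 ± 9.62 at 6 h. Its libraries lay above sham in all 6 reperfusion groups, 3 h included, where Naprt overlapped sham. Its part in the Naprt counts was not tested.

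Nmnat1, the nuclear adenylyltransferase, was lowest at 6 h. Sham libraries were tightly grouped at 21.6, 20.4 and 21.4 CPM (chromosome 4, 149467572 to 149485202, minus strand). At 3 h they held 11.7, 18.7 and 14.1 CPM, at 6 h 11.1, 9.57 and 8.47 CPM, and at 12 h 12.3, 11.8 and 12.5 CPM. The log2 differences were -0.52 ± 0.15, -1.12 ± 0.15 and -0.80 ± 0.15. All libraries of these 3 groups lay below sham, and those at 12 h lay above those at 6 h. Of the earlier groups, ischemia (17.4 to 18.8 CPM) and 1 h (15.4 to 18.5 CPM) also lay below all sham libraries, with log2 differences of -0.23 and -0.31, and 0.5 h and 1.5 h overlapped sham.

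Nmnat3, the mitochondrial adenylyltransferase, moved little. It stood at 15.5, 14.9 and 15.3 CPM in sham (chromosome 9, 98287435 to 98420438, plus strand). At 6 h it stood at 13.2, 11.2 and 9.96 CPM, a log2 difference of -0.41 ± 0.14. Elsewhere its log2 difference lay between -0.21 ± 0.14 in ischemia and 0.09 ± 0.14 at 1 h, and libraries of all groups but ischemia and 6 h overlapped sham. Per kilobase the ratio of Nmnat3 to Nmnat1 was 0.435 to 0.444 in sham, 0.503 to 0.622 at 1 h and 0.511 to 0.669 at 3 h. It was 0.711 to 0.720 at 6 h and 0.599 to 0.768 at 12 h. The ranges of these reperfusion groups lay above that of sham, and those of ischemia, 0.5 h and 1.5 h overlapped it.

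Sirt1, a nuclear deacetylase that consumes NAD and is widely studied as a sensor of it, had every library above sham over 4 times in a row, the longest such run among the 10 genes. Of all genes tested, 16.9% had every library above sham at 1 h, 16.9% at 1.5 h, 23.7% at 3 h and 30.6% at 6 h. The same sham libraries served all 4 times. The gene lies on chromosome 10, 63319005 to 63381704, minus strand. Its promoter window (GRCm38.p6, chr10:63338986-63339285, minus strand, inside the longer gene span of GENCODE) is shown as the contrast to those of Nmrk2 and Inmt, with each E-box CACGTG in capitals.
Sirt1: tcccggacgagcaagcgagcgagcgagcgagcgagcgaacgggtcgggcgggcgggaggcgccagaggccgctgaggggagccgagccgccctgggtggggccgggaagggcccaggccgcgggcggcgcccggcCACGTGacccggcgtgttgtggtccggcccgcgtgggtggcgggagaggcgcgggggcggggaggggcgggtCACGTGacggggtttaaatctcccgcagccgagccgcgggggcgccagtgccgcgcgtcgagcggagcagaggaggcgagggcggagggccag
The matches begin 115 and 43 bases before the RefSeq start, and the window has 79% G or C and 47 CG pairs. Among the 8 of the 10 genes with an entry in the promoter table, CACGTG was found in Sirt1 only and the AP-1 letters in none. A match is a run of letters and not a measured site.

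Sham libraries held Sirt1 at 17.4, 16.7 and 17.7 CPM. At 0.5 h they held 12.8, 10.9 and 16.6 CPM, all below sham, a log2 difference of -0.36 ± 0.17. From 1 to 6 h the level was above sham in every library, with 21.7, 20.2 and 18.5 CPM at 1 h and 25.1, 20.6 and 26.9 CPM at 3 h. The peak was at 6 h, with 25.0, 37.3 and 32.9 CPM and a log2 difference of 0.88 ± 0.16. At 12 h the values were 16.6, 20.3 and 21.0 CPM, overlapping sham and all below the 6 h libraries.

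Cd38, the membrane ecto-enzyme that splits NAD to nicotinamide and ADP-ribose, did not pass the threshold in any comparison. Sham libraries held 25.9, 28.5 and 34.9 CPM (chromosome 5, 43868553 to 43912375, plus strand). The lowest group was 0.5 h with 18.7, 20.5 and 23.8 CPM, all below sham, a log2 difference of -0.50 ± 0.17. At 6 h the libraries held 27.7, 28.4 and 30.1 CPM and at 12 h 32.1, 35.9 and 30.7 CPM. The 95% intervals of the log2 difference, a normal approximation from the fitted error, ran from -0.38 to 0.28 and from -0.18 to 0.47. The late groups overlapped sham. The summed neutrophil markers of the same libraries lay far above sham, and the part of such cells in the Cd38 level was not tested.

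Nnmt, the methyltransferase that removes nicotinamide, peaked at 3 h and was back at the sham level by 6 h. Sham libraries held 2.38, 2.95 and 2.80 CPM (chromosome 9, 48591877 to 48605153, minus strand), 115 reads in all. At 1.5 h they held 3.67, 3.10 and 6.91 CPM, and at 3 h 7.17, 5.25 and 6.50 CPM, a log2 difference of 1.22 ± 0.29. All libraries at 1, 1.5 and 3 h lay above sham. At 6 h the values were 4.20, 2.99 and 2.06 CPM and at 12 h 2.75, 2.32 and 1.93 CPM, overlapping sham in both groups and all below the 3 h libraries. The 3 h peak came before the 6 h peaks of Nmrk2 and Sirt1 in group order.

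Inmt, the indole and thioether methyltransferase, was lower than in sham at every time. It lies on chromosome 6, 55170626 to 55175043, minus strand. Its promoter window (GRCm38.p6, chr6:55174941-55175240, minus strand) is shown with TATAAA in capitals. Inmt and Nmrk2 were the only 2 of the 8 genes with a window that held this motif. It was looked for after the windows had been read, and 13.6% of all windows hold it, so nothing is read from this.
Inmt: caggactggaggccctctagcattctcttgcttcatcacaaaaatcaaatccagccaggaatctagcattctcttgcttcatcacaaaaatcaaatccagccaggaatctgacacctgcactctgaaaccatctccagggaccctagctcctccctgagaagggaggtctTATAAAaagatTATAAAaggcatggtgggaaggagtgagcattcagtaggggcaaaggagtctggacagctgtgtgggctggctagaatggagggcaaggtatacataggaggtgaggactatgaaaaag
The matches begin 80 and 69 bases before the start, in a window with 47.7% G or C and 0 CG pairs.

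Sham libraries held Inmt at 6.61, 4.66 and 9.43 CPM, or 103, 68 and 118 reads. After ischemia they held 4.16, 1.77 and 3.78 CPM, a log2 difference of -1.08 ± 0.36. From 0.5 to 3 h the libraries lay between 1.60 and 3.67 CPM, with log2 differences from -1.53 ± 0.37 to -1.03 ± 0.36. A further step came between 3 h and 6 h, when the mean went from 2.36 to 0.462 CPM. The 6 h libraries held 0.828, 0.122 and 0.436 CPM, from 14, 2 and 7 reads, and the 12 h libraries 0.165, 0.606 and 0.569 CPM, from 3, 12 and 10 reads. The log2 differences were -3.87 ± 0.45 and -3.91 ± 0.45, or 14.6-fold and 15.1-fold lower. Without 6 h replicate 1, the library with the most reads of its group, the 6 h difference was -4.59. At these depths 1 library of each group was at or under the floor of 3 counts. All 21 libraries outside sham lay below the lowest sham library, and the 6 h and 12 h groups lay below all others without overlap. Inmt is known to be abundant in lung, and of the 7 lung markers Scgb1a1, Scgb3a2, Sftpa1, Sftpb and Lamp3 had 0 reads in sham and the list summed to 0.205 to 0.480 CPM there. Of the 10 fibroblast markers, 6 fell and 3 rose at 6 h, and 3 fell and 2 rose at 12 h. The part of either cell type in the Inmt levels was not tested.

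Per kilobase, Nnmt was below Inmt in sham, with a ratio of 0.301 to 0.642 over libraries, and above it in all libraries from 1 h on. The ratio was 2.63 to 2.88 at 3 h, when Nnmt was high, and 4.79 to 24.9 at 6 h, when Inmt was near its floor.

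Among other genes of NAD building and precursor handling, 14 of 17 listed passed the filter. Their tests are those of edgeR (quasi-likelihood), adjusted by Benjamini-Hochberg over all genes. At 6 h, 4 rose and 6 fell, and at 3 h 2 rose and 4 fell. Of all genes, 47.4% were called at 6 h and 35.3% at 3 h, and nothing is read from the counts of this list. Nt5e, the surface nucleotidase that strips phosphate from extracellular mononucleotides, held 44.6, 32.4 and 19.9 CPM in sham and 107, 191 and 141 CPM at 6 h. It rose by 2.17 ± 0.25 on the log2 scale (adjusted p = 3.02e-07) and stood at 34.4 to 35.8 CPM at 12 h. The smaller rise at 3 h, 0.66 ± 0.25 (adjusted p = 0.0416), did not hold when sham replicate 2 or 3 or 3 h replicate 1 or 3 was left out. It was also lost with scaling by library totals alone and with only the 2 groups compared. Among its alternatives the adjusted p lay between 7.21e-05 and 0.23. Nadk, the cytosolic kinase that turns NAD into NADP, held 42.1, 36.6 and 38.5 CPM in sham and 71.3, 91.3 and 74.6 CPM at 6 h, a rise of 1.02 ± 0.11 (adjusted p = 5.9e-08). Its mitochondrial counterpart Nadk2 fell from 77.9 ± 3.61 to 53.7 ± 0.402 CPM (log2 -0.54 ± 0.12, adjusted p = 0.000799). Nadk2 was picked out after its values were seen.

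Nudt12, a peroxisomal hydrolase of NADH, fell from 19.6 ± 1.54 CPM in sham to 8.66 ± 0.799 at 3 h and 6.55 ± 1.28 at 6 h. By edgeR's test its log2 fold changes were -1.18 ± 0.15 (adjusted p = 4.29e-06) and -1.58 ± 0.16 (adjusted p = 2.76e-08). A smaller fall at 0.5 h (-0.47 ± 0.15, adjusted p = 0.0407) was not called when any 1 of the 6 libraries was left out. That call was also lost with scaling by library totals alone and with no filter on low counts. At 12 h Nudt12 held 16.3, 14.1 and 15.8 CPM. Of the nucleoside carriers, Slc29a3 fell at 1, 1.5, 3 and 6 h, most at 3 h (-1.03 ± 0.20, adjusted p = 0.000461). Its call was lost at 1 h without any 1 of 5 libraries (all sham replicates and 1 h replicates 1 and 2). At 1 h it was also lost with scaling by library totals alone. The call at 1.5 h was lost without replicate 1 or 3 of that group. Slc29a2 fell at 3 h (-0.97 ± 0.24, adjusted p = 0.00317) and rose at 6 h (0.58 ± 0.23, adjusted p = 0.0383). The 6 h call was lost without sham replicate 1 or 3 or 6 h replicate 3, and with only the 2 groups compared. Of the route that makes NAD from tryptophan, 3 of 8 genes were tested and the list summed to at most 6.56 CPM in any library. Afmid, a formamidase of that route and the only one called, rose at 3 h from 1.98 ± 0.234 to 3.78 ± 0.496 CPM (log2 0.94 ± 0.31, adjusted p = 0.0229), not called when sham replicate 1 or 2 or 3 h replicate 1 was left out. It was named after its values were seen.

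**Figure D4:**
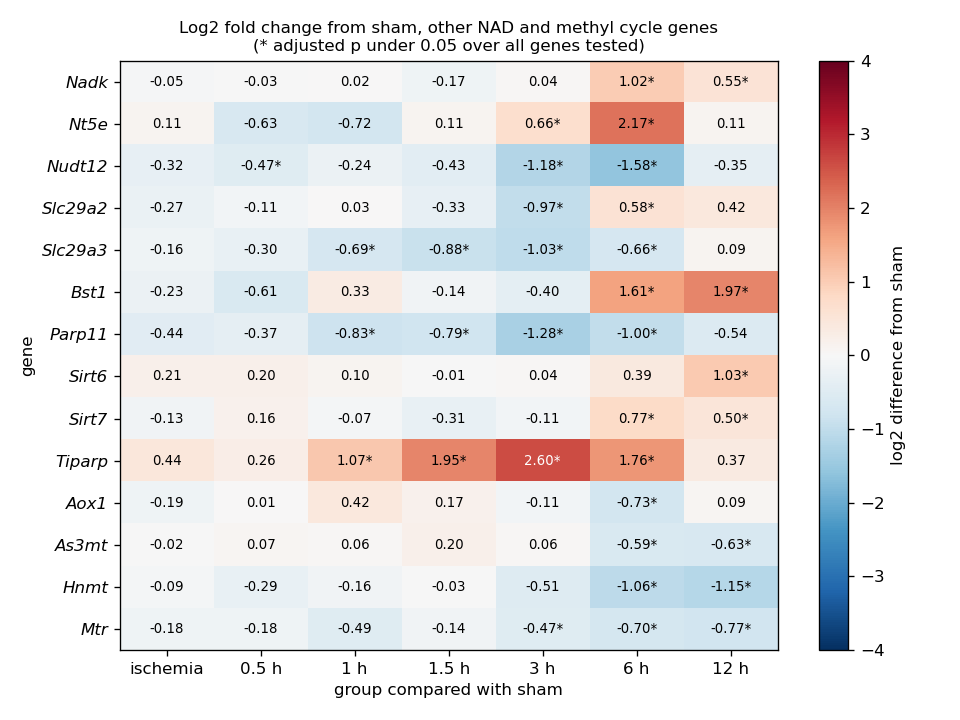
Log2 fold change from sham of 14 other genes of NAD handling, NAD use and methyl transfer (rows) in the 7 other groups (columns), with an asterisk where the adjusted p was under 0.05. Tiparp at 3 h (2.60) and Nt5e at 6 h (2.17) are the highest values and Nudt12 at 6 h (-1.58) is the lowest.

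Among 20 tested NAD-consuming enzymes, 3 rose and 3 fell at 3 h, 4 rose and 5 fell at 6 h, and 5 rose and 1 fell at 12 h. The shares of all genes called were 35.3%, 47.4% and 31.8%, and nothing is read from these counts. Tiparp, a mono-ADP-ribosyltransferase induced by the aryl hydrocarbon receptor, held 28.3, 19.0 and 29.9 CPM in sham and 176, 152 and 141 CPM at 3 h. It rose by 1.95 ± 0.28 at 1.5 h, 2.60 ± 0.29 at 3 h (edgeR adjusted p = 4.58e-07) and 1.76 ± 0.28 at 6 h. Its 12 h level, 27.5 to 44.8 CPM, overlapped sham. Its earlier rise at 1 h, 1.07 ± 0.28 (adjusted p = 0.0148), needed both sham replicate 2 and 1 h replicate 1. Parp11, another mono-ADP-ribosyltransferase, fell from 10.1 ± 0.859 CPM in sham to 4.11 ± 0.996 at 3 h (-1.28 ± 0.23, adjusted p = 0.000139) and fell to 5.04 ± 0.358 at 6 h (adjusted p = 0.000749). Its calls at 1 h (-0.83 ± 0.22) and 1.5 h (-0.79 ± 0.22) did not hold without sham replicate 1, among other libraries, with adjusted p up to 0.0771 and 0.157. The 1.5 h call was also lost with scaling by library totals alone.

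Bst1 is the close relative of Cd38 and is also known from myeloid cells. It held 1.22, 2.40 and 1.76 CPM in sham, 3.90, 7.68 and 4.80 CPM at 6 h and 5.77, 7.02 and 8.25 CPM at 12 h. It rose by 1.61 ± 0.36 (edgeR adjusted p = 0.000755) and 1.97 ± 0.35 (adjusted p = 0.000172), in the libraries where all tested neutrophil markers rose. The part of such cells in the Bst1 level was not tested. Among the other sirtuins, Sirt7, a nucleolar deacetylase, rose at 6 h (0.77 ± 0.19, adjusted p = 0.00168). Its call at 12 h (0.50 ± 0.19, adjusted p = 0.0447) did not hold without 1 of 4 libraries (sham replicates 2 and 3, 12 h replicates 1 and 2). It was also lost with the duplicates removed and with the replicate number as a block. Sirt6, a chromatin deacetylase, rose at 12 h from 4.37 ± 1.11 to 9.01 ± 2.04 CPM (1.03 ± 0.22, adjusted p = 0.000814). Sirt3, the mitochondrial deacetylase, rose at 0.5 h from 23.8 ± 1.22 to 36.3 ± 1.85 CPM (0.61 ± 0.13, adjusted p = 0.00618), at a time when Sirt1 stood below sham. It also rose at 1 h (0.49, adjusted p = 0.0196), when every Sirt1 library was above sham. That call was lost without sham replicate 1 or 2 or 1 h replicate 1. Sirt3 was named after its values were seen.

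In the methyl donor cycle and among small-molecule methyltransferases, 18 of 22 listed genes were tested. Of these, 3 rose and 7 fell at 6 h and 2 rose and 4 fell at 12 h. The shares of all genes called were 47.4% and 31.8%, and nothing is read from these counts. Hnmt, which methylates histamine, fell from 8.17 ± 0.994 to 3.93 ± 0.183 CPM at 6 h and 3.69 ± 0.187 at 12 h (-1.15 ± 0.23, edgeR adjusted p = 0.000621). As3mt, the arsenic methyltransferase, fell by 0.59 ± 0.13 at 6 h and 0.63 ± 0.13 at 12 h on the log2 scale (adjusted p = 0.000448 and 0.000433). Mtr, methionine synthase, which restores the methyl donor's precursor, fell from 72.4 ± 7.20 to 44.6 ± 2.82 CPM at 6 h and 42.4 ± 3.98 at 12 h (-0.77 ± 0.16, adjusted p = 0.000703). Its call at 3 h (-0.47 ± 0.16, adjusted p = 0.0247) needed each of sham replicate 1, 3 h replicate 1 and 3 h replicate 3. That call was also lost with only the 2 groups compared. Aox1, an oxidase that also acts on methylated nicotinamide, fell at 6 h from 33.3 ± 7.27 to 20.1 ± 5.89 CPM (-0.73 ± 0.20, adjusted p = 0.00491). Ahcy, the hydrolase of the spent methyl donor, rose at 6 h (0.57 ± 0.13, adjusted p = 0.00111), and was picked out after its values were seen.

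Over all 4 lists, 55 of 68 genes were tested. After ischemia alone 0 were called by edgeR, DESeq2 or limma-voom, and 3 had an unadjusted p under 0.05. This does not show that the genes were unchanged. At 6 h, 11 rose and 18 fell, which is 52.7% of those tested beside 47.4% of all genes, with a median log2 fold change of 0.04 beside -0.01. At 3 h, 7 rose and 11 fell, 32.7% beside 35.3%. At 12 h, 8 rose and 7 fell, 27.3% beside 31.8%. These shares lay near those of all genes, and nothing particular to the lists is read from them.

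The genes whose log2 CPM followed the 3 widest-ranging members most closely over the 24 libraries are given as a description, since libraries of a group share their treatment. For Nmrk2 they were Rras2 (r = 0.957), a small GTPase, Ppm1e (r = 0.947), a protein phosphatase, and Clic5 (r = 0.945), an intracellular chloride channel protein. Rras2 stood at 58.4 ± 8.08 CPM in sham, 59.6 ± 0.823 at 3 h, 236 ± 92.2 at 6 h and 209 ± 21.2 at 12 h. Clic5 stood at 274 ± 25.3 CPM in sham, 275 ± 9.19 at 3 h, 762 ± 162 at 6 h and 803 ± 94.6 at 12 h, so at 3 h both stood near their sham means. Ppm1e held 12.7 to 18.7 CPM in sham and 9.21 to 12.6 CPM at 3 h, with means of 42.7 ± 16.3 at 6 h and 36.7 ± 5.26 at 12 h. At 3 h its libraries lay below all sham libraries, as those of Nmrk2 did.

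For Inmt they were Rbfox1 (r = 0.917), a splicing regulator, Itih5 (r = 0.912), a matrix protein that binds hyaluronan, and Col6a6 (r = 0.912), a collagen chain. Col6a6 stood at 13.7 ± 0.460 CPM in sham, 9.80 ± 0.669 at 3 h, 2.36 ± 1.08 at 6 h and 1.17 ± 0.164 at 12 h. For Nnmt they were Peli2 (r = 0.876), a ubiquitin ligase, Tmem252 (r = 0.860), a membrane protein, and Spsb1 (r = 0.857), an adaptor of ubiquitin ligases. Spsb1 stood at 41.6 ± 4.29 CPM in sham, 86.2 ± 6.67 at 3 h, 42.5 ± 12.4 at 6 h and 26.8 ± 6.17 at 12 h, with its highest group at 3 h as for Nnmt.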

How the data were processed

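RNA was extracted from frozen heart tissue with Trizol and made into Illumina TruSeq libraries, per the labels' protocols. The authors deposited, per the file headers, whole-number counts per Ensembl gene of 24 libraries, with and without duplicates and multiply mapped reads, a gene length in bases, and RPKM, which was not used in any test. The submitters' processing notes name mm10. The aligner, counter, strand setting and annotation release were not given in the sources used here. Symbols matched 45143 IDs (98.0%), and positions came from GENCODE on GRCm38.

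Counts of unique reads with duplicates kept were tested in 1 fit of all 24 libraries with edgeR 4.0.16 (R 4.3.3; quasi-likelihood, TMM factors 0.858 to 1.16, filterByExpr with a minimum count of 10, no covariate, 16 residual degrees of freedom), each group against sham, with Benjamini-Hochberg adjustment over 15128 genes and a threshold of 0.05. No 2 libraries were identical. Alternatives were other scalings, no filter, duplicates removed, multiply mapped reads included, the replicate number as a block, the 2 groups alone, DESeq2 1.42.0, limma 3.58.1 (voom), and leaving out each library. The script was tested on simulated data.

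The members and gene lists were chosen with earlier results of these data known. Outside the members, the 5 genes per list with the largest called change and at least 5 CPM in the higher group were named, and for the 3 members of widest range the 3 most correlated genes. Of the genes so chosen, 1 is not reported here.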

Additional observations from a re-analysis of the deposited data

How the results depend on the processing

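No result changed direction past the threshold under any alternative. The replicate numbers did not pair the libraries: 6 of 84 same-numbered pairs correlated over 0.1 in their deviations, and 5 of 24 libraries were closest to their own number. With the replicate block, 3 other NAD and methyl cycle genes were called at 0.5 h instead of 5, 2 members instead of 1 lay past the threshold at 1.5 h, and Sirt7 at 12 h was not called (adjusted p = 0.0503). Members past it numbered 2 with library totals alone, 3 without the filter, 3 with duplicates removed, 4 with only the 2 groups and 2 with DESeq2 at 0.5 h (1 in the main fit). Without the filter they numbered 2 after ischemia (0), 2 at 1 h and 2 at 1.5 h; at 1 h also 2 with duplicates removed, 2 with the 2 groups alone, 2 with DESeq2 and 0 with limma-voom; at 1.5 h 2 with the 2 groups alone. Other genes called numbered 10 without the filter at 1 h (6), and with only the 2 groups 13 at 0.5 h (5) and 7 at 1.5 h (4). Leaving out 1 library gave 0 to 1 members past the threshold at 0.5, 1 and 1.5 h, 3 to 4 at 3 h (5), 6 to 7 at 6 h (8) and 3 to 3 at 12 h (3), and 0 to 0 after ischemia. It gave 1 to 3 other genes at 0.5 h, 1 to 6 at 1 h, 1 to 3 at 1.5 h, 11 to 16 at 3 h (18), 22 to 27 at 6 h (29), 10 to 16 at 12 h (15) and 0 to 0 after ischemia. The members were chosen with these comparisons known, so which of them stay past the threshold is a description and no evidence for them. Members past the threshold under all 15 alternatives were Nmrk2, Nmnat1 and Inmt at 6 and 12 h, Nmrk1 and Sirt1 at 6 h, and Nnmt and Inmt at 3 h. Nampt at 6 h was not past it without sham replicate 3, nor Nmnat1 at 3 h without 3 h replicate 1. Naprt and Nmnat3 at 6 h, Nmrk1 and Sirt1 at 3 h, Nmrk2 at 1 h and Inmt at 0.5 and 1.5 h were not past it without 2 or more single libraries. Scaling by library totals alone put the median log2 fold change of all genes at 0.118 at 0.5 h and 0.227 at 12 h, from -0.00923 and 0.0101. It changed the split of called genes to 1629 higher and 230 lower at 0.5 h, 1162 and 261 at 1 h, and 4079 and 1229 at 12 h, from 1124 and 678, 1129 and 516, and 2551 and 2256. The cause was not tested. Depth limits Inmt at 6 and 12 h, where libraries held 2 to 14 reads.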
